A study of Drosophila melanogaster with 23 samples.

Results

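The 10 genes described here, lt, cta, rl, Nipped-A, Nipped-B, vtd, Dbp80, CycK, CG17493 and Slmap, lie in the pericentromeric heterochromatin of Drosophila melanogaster. They were studied through the binding of Mzfp1 (CG1603), a zinc-finger protein with a C-terminal cluster of C2H2 domains and a pair of MADF domains. The genes were chosen from 13968 annotated protein-coding genes on the assembled chromosomes, and they were chosen by the Mzfp1 regions already known to be listed at their promoters, so the presence and strength of those regions are given as a description with no test. A region belonged to a gene when it shared at least 1 bp with the gene body or with the 5 kb upstream of an annotated transcription start site (TSS). The rule found 124 regions in 10 ChIP-seq lists, which joined into 26 separate sites. The label calls the genes active. Transcription was not measured in the files used here, whereas the location can be checked, and all 10 genes lie inside the heterochromatin coordinates that the study used.

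The series holds 18 ChIP-seq libraries and 5 preimmune or IgG control libraries from whole animals. Untagged y1w1118 embryos, collected between 0 and 12 h of age, were precipitated with a rabbit or a rat antibody against Mzfp1, with 1 library for each list. Untagged y1w1118 adults, 2 to 3 days old, were precipitated with anti-Mzfp1. The other adults of the same age carried a 3×HA-tagged transgene at the landing site M{3xP3-RFP.attP}ZH-86Fb. By the paper's methods it was injected into a y[1] w[*] strain with the integrase source vas-int.Dm at ZH-2A (marked by RFP[3xP3.PB] and GFP[E.3xP3]). The progeny were then crossed to y1w1118 and to y1w1118 balancer lines. The transgene was wild type (wt-HA, genotype U:Mzfp1WT/TM6,Tb), lacked the second MADF domain (ΔM2-HA, U:Mzfp1deltaM2/TM6,Tb), lacked the region that contacts the architectural protein CP190 (Δ42-HA, U:Mzfp1delta42/TM6,Tb) or lacked C2H2 domains of the cluster (ΔZF-HA, U:Mzfp1deltaZf/TM6,Tb). All 4 transgenes were driven by the ubiquitous Ubi-p63E promoter from one insertion site, and the flies kept 1 endogenous copy of the gene, as the study describes the adults as CG1603attP over the balancer CyO. Anti-HA therefore saw the tagged protein only, while anti-Mzfp1 saw the tagged and the endogenous protein together. The antigen of anti-Mzfp1 holds the residues that Δ42 lacks, so the antibody may see this variant less well, which was not tested. The protein levels were not equal. The paper reports several times more Mzfp1 in the wt-HA line than in y1w1118 adults. It also reports more ΔM2-HA and less Δ42-HA protein than wt-HA, with ΔZF-HA near wt-HA. The part of protein level in the comparisons was not tested.

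Each adult list came from 2 libraries and each group has 1 list, so fold enrichment and rank have no spread between replicates and no test was made. Only the widths and the ranking scores are given for each of the 2 inputs that the reproducibility step (IDR) compared. The comparisons of variants share the wt-HA list of the same antibody. The lists hold between 110 and 6215 regions on the assembled chromosomes, and with anti-HA the ΔM2-HA list (6215 regions) and the Δ42-HA list (6192) were far longer than the wt-HA list (553). The largest IDR was close to 0.05 in the y1w1118, Δ42-HA anti-Mzfp1 and ΔZF-HA lists and close to 0.01 in the other adult lists. The cut-offs of the adult lists may therefore differ. Strength is given as the fold enrichment of the ChIP over its control at the summit, as the peak caller wrote it, and as the rank of that value in its list. The controls came from y1w1118 animals and in adults were made with anti-HA or with non-specific rat antibodies. Regions were called against the corresponding control, but which one served each list is not stated in the labels.

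Pericentromeric heterochromatin is the repeat-rich, compact chromatin that flanks the centromeres. Most genes moved next to it are silenced, whereas a small set of genes has its normal home there and needs this surrounding for full activity, as first worked out for light (lt) and rolled (rl). Many of these genes have basic cellular functions and long introns filled with repeats.

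Among the genes of chromatin and chromosome structure, Nipped-A lies at 2R:5177965-5251022 on the minus strand (build dm6, as all coordinates here), Nipped-B at 2R:4691672-4729017 on the minus strand and vtd at 3L:27136525-27157999 on the plus strand. Of the genes of RNA metabolism, Dbp80 lies at 3L:27279316-27422159 on the plus strand and CycK at 2L:22124285-22130142 on the minus strand. The signalling genes are rl at 2R:1071462-1125927, cta at 2L:22981816-22992951 and Slmap at 2L:22579072-22585843, all on the plus strand. The last pair, lt at 2L:22924795-22943135 and CG17493 at 2L:22550064-22556295, is also on the plus strand. Lengths ran from 5.86 kb for CycK to 143 kb for Dbp80.

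The position of the strongest summit near each TSS varied by 3 to 92 bp between the adult lists that held one. In 7 of 10 genes the median adult summit lay upstream of the nearest TSS, and all adult summits lay within 150 bp of a TSS. Relative to the nearest TSS, the adult summits of lt spanned 3 bp (from −44 to −41 bp), those of rl 4 bp (−53 to −49 bp) and those of Slmap 6 bp (35 to 41 bp). The span was 15 bp in CycK, 21 bp in Dbp80, 27 bp in Nipped-B, 29 bp in vtd and 30 bp in cta. It was largest in Nipped-A, 52 bp, where the wt-HA anti-HA summit lay at −68 bp and all other adult summits at −119 or −120 bp, and in CG17493, 92 bp. In CG17493 the wt-HA anti-HA summit was again the one that stood apart, at 70 bp against −22 to 21 bp in the other adult lists.

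The sequences at the summits are shown because the summits are where Mzfp1 was mapped most precisely. They were read from the RefSeq Release 6 assembly, the sequence of dm6, on the strand of the gene. The capitals mark the 11 bases centred on the wt-HA anti-Mzfp1 summit. For lt, cta, vtd and Dbp80 the run is the 100 bases just upstream of the first TSS, which overlap no annotated exon. For CycK, CG17493 and Slmap, whose summits lie at or downstream of a TSS, the run is 30 bases at the summit, inside the 5′ untranslated exon.
lt (2L:22924695-22924794): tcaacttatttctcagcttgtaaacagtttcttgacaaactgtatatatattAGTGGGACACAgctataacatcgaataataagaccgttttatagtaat
cta (2L:22981716-22981815): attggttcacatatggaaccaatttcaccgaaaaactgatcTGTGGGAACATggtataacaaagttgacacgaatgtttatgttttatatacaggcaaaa
vtd (3L:27136425-27136524): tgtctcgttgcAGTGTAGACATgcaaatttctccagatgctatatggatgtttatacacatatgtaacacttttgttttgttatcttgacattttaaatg
Dbp80 (3L:27279216-27279315): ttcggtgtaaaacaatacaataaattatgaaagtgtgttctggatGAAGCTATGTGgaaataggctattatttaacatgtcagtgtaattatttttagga
CycK (2L:22130106-22130135, minus strand): gttcctcgtAACAGTCAAAGgacggccaaa
CG17493 (2L:22550224-22550253): tttcacaagtGTGAACAGGCCttaaacatt
Slmap (2L:22579098-22579127): attgtcgctaTTTTGACGGAAatattttaa

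These promoters were rich in A and T. The 201 bp around the 10 summits had a median G+C content of 30.3% (27.4% for lt to 37.3% for CycK). The median was 34.3% at the summits of the other 96 heterochromatic regions of the wt-HA anti-Mzfp1 list, 42.3% at its 1574 euchromatic regions and 42.3% at 19275 TSSs of protein-coding genes. The word TATCGATA, the core of the DRE that the promoter factor DREF recognises, and its inner part ATCGAT were searched within 100 bp of the summits. Both words read the same on the 2 strands, and every TATCGATA also counts as an ATCGAT. TATCGATA occurred near 356 of 1666 y1w1118 summits (21.4%), at 0.45% of places 1 kb away from them and at 6.44% of protein-coding TSSs. ATCGAT occurred near 43.5% of the y1w1118 summits, 7.26% of the places 1 kb away and 16.4% of the TSSs. At the 1684 summits of the wt-HA anti-Mzfp1 list the shares were 18% for TATCGATA and 37.4% for ATCGAT. Of the 10 genes, read at their summits in that list, only vtd held either word in this window. Its TATCGATA was centred 88.5 bp downstream of the summit and lay at the TSS itself, and a second ATCGAT was centred at −87.5 bp from the summit. The 30 bases around the word are given with the word in capitals.
vtd (3L:27136515-27136544): attttaaatgaTATCGATAatttgataaaa
Among the 83 heterochromatic y1w1118 regions as a whole, 7.23% had TATCGATA and 14.5% had ATCGAT near the summit. A match, or the lack of one, describes these letters and not the binding of a factor.

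All 10 genes had a region within 500 bp of a TSS in 5 of the lists, the wt-HA and Δ42-HA lists of both antibodies and the ΔM2-HA anti-HA list. With anti-Mzfp1, such a region was found at 10 genes in wt-HA (against 15.8% of all protein-coding genes), at 10 in Δ42-HA (18.2%), at 9 in y1w1118 (16.0%) and at 8 in ΔM2-HA (14.3%). With anti-HA, it was found at 10 genes in wt-HA (3.99% of all), at 10 each for ΔM2-HA (20.0%) and Δ42-HA (19.6%), and at 5 for ΔZF-HA (8.01%). The embryo lists held 4 genes with the rabbit antibody (0.866% of all) and 5 with the rat antibody (6.77%). As the genes were chosen with these lists known, nothing is read from the height of the counts. CycK was the gene missing from the y1w1118 list, and CycK and CG17493 those missing from the ΔM2-HA anti-Mzfp1 list. A region was also listed near a TSS at 69 of 145 other heterochromatic protein-coding genes (47.6%) in wt-HA with anti-Mzfp1 and at 66 (45.5%) with anti-HA.

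**Figure D1:**
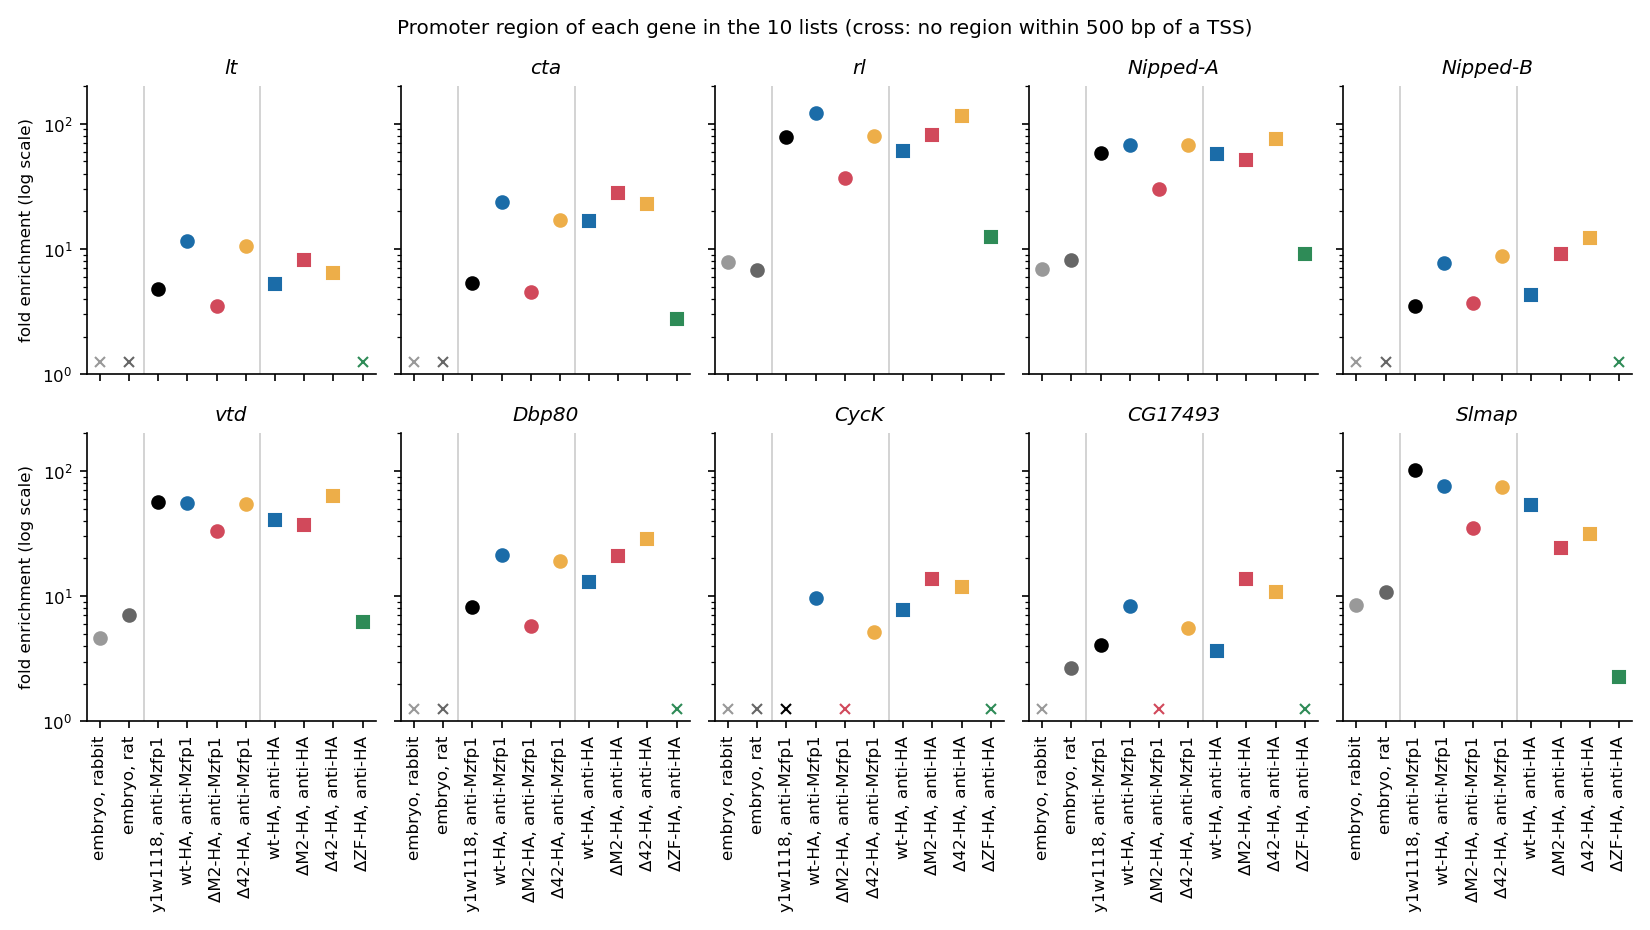
Fold enrichment (log scale) of the strongest region within 500 bp of a TSS for each of the 10 genes in the 10 lists; circles are anti-Mzfp1, squares anti-HA, and a cross means that no such region was listed. In rl, Nipped-A, vtd and Slmap the wt-HA anti-Mzfp1 value lies between 55.1 and 122, in the other 6 genes between 7.77 and 23.6, and the ΔM2-HA anti-Mzfp1 circle lies below the wt-HA circle in all 8 genes where both exist.

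Nipped-A encodes the large scaffold subunit (Tra1 or TRRAP) shared by the SAGA and Tip60 histone acetyltransferase complexes. Its promoter region had a fold enrichment of 6.96 (rabbit) and 8.24 (rat) in embryos and of 58.4 in y1w1118 adults. With anti-Mzfp1, wt-HA gave 67.8, ΔM2-HA 30.0 and Δ42-HA 67.4. With anti-HA, wt-HA gave 57.2, ΔM2-HA 51.0, Δ42-HA 75.0 and ΔZF-HA 9.06. The gene was thus found in all 10 lists, and its ranks in wt-HA were 42 of 1684 with anti-Mzfp1 and 29 of 553 with anti-HA. The low adult values belong to ΔM2-HA with anti-Mzfp1 and to ΔZF-HA. The noncoding gene lncRNA:CR41443 starts within 500 bp of the site joined over the lists (2R:5249980-5253763), though not necessarily of each single region.

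vtd encodes Rad21, the kleisin subunit that closes the cohesin ring. Its promoter region had a fold enrichment of 4.59 (rabbit) and 7.12 (rat) in embryos and of 56.3 in y1w1118 adults. Under anti-Mzfp1, wt-HA gave 55.1, ΔM2-HA 33.1 and Δ42-HA 54.7, and under anti-HA, wt-HA gave 40.4, ΔM2-HA 36.8, Δ42-HA 62.4 and ΔZF-HA 6.22. The y1w1118, wt-HA and Δ42-HA values with anti-Mzfp1 were within 2 units of each other. Of the 8 genes listed in ΔM2-HA with anti-Mzfp1, vtd kept the largest part of its wt-HA value, 0.602.

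Nipped-B encodes the cohesin loader, the fly counterpart of NIPBL. Its region was listed in no embryo list and had the lowest fold enrichment of the 9 listed genes in y1w1118, 3.49, and of all 10 in wt-HA with anti-Mzfp1, 7.77. The same antibody gave 3.72 for ΔM2-HA and 8.81 for Δ42-HA, whereas anti-HA gave 4.28 for wt-HA, 9.15 for ΔM2-HA and 12.2 for Δ42-HA. ΔZF-HA had no region there. The loader and the ring subunit therefore stood far apart in strength in y1w1118 (3.49 against 56.3) although both act in cohesin. The lncRNA:CR45471 starts inside or within 500 bp of the Nipped-B site joined over the lists (2R:4728816-4730530).

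Dbp80 encodes a DEAD-box helicase of mRNA export. Its region was absent from both embryo lists and had a fold enrichment of 8.11 in y1w1118. In transgenic flies anti-Mzfp1 gave 21.3 for wt-HA, 5.81 for ΔM2-HA and 19.1 for Δ42-HA, whereas anti-HA gave 12.9 for wt-HA, 20.8 for ΔM2-HA and 28.5 for Δ42-HA. The 2 antibodies gave opposite orders for wt-HA and ΔM2-HA. No region was listed near its TSS in ΔZF-HA.

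CycK encodes cyclin K, the partner of the transcription kinase Cdk12. It had no promoter region in the embryo, y1w1118, ΔM2-HA anti-Mzfp1 and ΔZF-HA lists. Where listed, its fold enrichment was 9.64 in wt-HA and 5.15 in Δ42-HA with anti-Mzfp1, and anti-HA gave 7.70 for wt-HA, 13.7 for ΔM2-HA and 11.7 for Δ42-HA. CycK was therefore listed only in flies with a tagged transgene. A separate region with its summit at −1271 bp (fold enrichment 4.25) was listed in wt-HA with anti-HA and one at −1216 bp (4.02) in Δ42-HA with anti-Mzfp1, and in the ΔM2-HA and Δ42-HA anti-HA lists a single region of 3195 and 3199 bp covered both places. The wt-HA region with anti-Mzfp1 (2216 bp) also covered both, where Δ42-HA had separate regions of 962 and 754 bp. CG42748, CR43240 and lncRNA:CR43241 start inside or within 500 bp of the CycK site joined over the lists (2L:22128545-22131783).

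rl encodes the ERK MAP kinase of Drosophila. Its promoter had the highest fold enrichment of the 10 genes in wt-HA, 122 with anti-Mzfp1 (rank 13 of 1684) and 60.4 with anti-HA (rank 24 of 553). The other anti-Mzfp1 values were 77.7 in y1w1118, 37.2 in ΔM2-HA and 80.4 in Δ42-HA, and the embryo values were 7.80 (rabbit) and 6.77 (rat). With anti-HA the value was 81.8 in ΔM2-HA (rank 4 of 6215), 114 in Δ42-HA (rank 8 of 6192) and 12.6 in ΔZF-HA (rank 5 of 6187). rl thus ranked among the first 49 regions of every transgenic list, and its summit lay upstream of the second of its 2 TSSs. The lncRNA:CR41257 starts inside or within 500 bp of the rl site joined over the lists (2R:1068738-1074006).

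cta encodes the Gα12/13 subunit of the gastrulation pathway. It was listed in no embryo list and had a fold enrichment of 5.39 in y1w1118 adults. Anti-Mzfp1 gave 23.6 for wt-HA, 4.55 for ΔM2-HA and 17 for Δ42-HA. Anti-HA gave 16.7 for wt-HA, 27.8 for ΔM2-HA, 23.0 for Δ42-HA and 2.78 for ΔZF-HA. Its wt-HA anti-Mzfp1 value was the one farthest above y1w1118 among the 9 genes listed in both, 4.37 times, and its ΔM2-HA anti-Mzfp1 value was the smallest part of wt-HA, 0.193.

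Slmap encodes a subunit of the STRIPAK phosphatase and kinase complex. Its promoter region was in all 10 lists, with a fold enrichment of 8.45 (rabbit) and 10.8 (rat) in embryos and 101 in y1w1118 adults, the highest of the genes listed in each of these 3 lists. With anti-Mzfp1, wt-HA stood at 75.1, ΔM2-HA at 35.1 and Δ42-HA at 74.6. With anti-HA, wt-HA stood at 53.0, ΔM2-HA at 24.1, Δ42-HA at 31.1 and ΔZF-HA at 2.25. Slmap was the only one of the 10 genes with lower values than wt-HA in both variants and with both antibodies. Its Δ42-HA ratio with anti-Mzfp1, 0.993, was practically 1, however.

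lt encodes Vps41, a subunit of the HOPS complex that tethers vesicles to the lysosome. It was listed in no embryo list and had a fold enrichment of 4.79 in y1w1118. Anti-Mzfp1 gave 11.5 for wt-HA, 3.49 for ΔM2-HA and 10.6 for Δ42-HA, and anti-HA gave 5.21 for wt-HA, 8.24 for ΔM2-HA and 6.46 for Δ42-HA. ΔZF-HA had no region at lt. CG17493 encodes a centrin-like protein with EF hands. Its values were 2.69 in embryos with the rat antibody, 4.08 in y1w1118, 8.26 in wt-HA and 5.53 in Δ42-HA with anti-Mzfp1, and anti-HA gave 3.62 for wt-HA, 13.6 for ΔM2-HA and 10.7 for Δ42-HA. Its ΔM2-HA to wt-HA ratio with anti-HA, 3.76, was the largest of the 10 genes.

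Between y1w1118 and wt-HA adults, both precipitated with anti-Mzfp1, the promoter values were higher in wt-HA at 7 of 9 genes, with a median ratio of 2.02 (0.741 for Slmap to 4.37 for cta). Over the regions shared by these lists as a whole the median ratio was 0.874, and 31.4% had a ratio above 1. ΔM2-HA was lower than y1w1118 at 7 of 8 genes (median ratio 0.653, against 0.786 over all shared regions). Only 14.5% of all regions shared by ΔM2-HA and y1w1118 had a ratio above 1, so the genes did not stand out by this count. Δ42-HA had a median ratio to y1w1118 of 1.36 (1.06 over all). Within wt-HA, the anti-HA values were 0.657 of the anti-Mzfp1 values at the median, near the 0.651 of all regions shared by the 2 lists.

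The comparison of ΔM2-HA with wt-HA asks whether binding at these genes depends on the second MADF domain. With anti-Mzfp1, the promoter value was lower in ΔM2-HA at all 8 genes that both lists held, with a median ratio of 0.373 (0.193 for cta to 0.602 for vtd). The ratio was below 0.5 at 7 of the 8 genes, against 9.62% of the 1268 regions shared over the whole lists and 62.7% of those in other heterochromatin. The regions were also narrower at all 8, with a median width ratio of 0.461 (0.265 for Nipped-B to 0.811 for vtd). Of the 8, 6 were below 0.67, against 17.2% of all shared regions and 69.5% of those in other heterochromatin. The interval of each list came from the first of its 2 IDR inputs, and at these 8 genes both input widths in ΔM2-HA were below both in wt-HA. The largest IDR in both lists was close to 0.01, the limit that the methods give for pseudoreplicates, so these inputs may be random splits of pooled reads and their agreement is not replicate support. Of the 14 wt-HA regions at the 10 genes, 6 (42.9%, 95% Wilson interval 21.4 to 67.4, which covers counting error only) had no counterpart in ΔM2-HA, against 24.7% of all 1684 regions. These 6 were the promoters of CycK and CG17493 and 4 regions away from promoters, so that at promoters alone 2 of 10 were not found (20%).

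These ratios were close to those of other heterochromatic regions and lower than in euchromatin. The 59 shared heterochromatic regions outside the 10 genes had a median fold enrichment ratio of 0.351 and a median width ratio of 0.473, and 37 of 96 such wt-HA regions (38.5%) were not found. The 1201 shared euchromatic regions had a median fold enrichment ratio of 0.955. Euchromatic regions whose wt-HA value lay in the range of the 10 promoters had a median of 0.665 for fold enrichment and of 0.916 for width, and 9.23% of them were not found. Of those shared, 36.2% had a fold enrichment ratio below 0.5 and 28.8% a width ratio below 0.67. The ratios of the 8 genes lay within the range of those other heterochromatic regions (0.0881 to 0.982).

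With anti-HA the order was different. All 12 wt-HA regions at the 10 genes had a counterpart in ΔM2-HA, while 21.5% of all 553 wt-HA regions and 3.33% of the 90 other heterochromatic ones had none. With a reciprocal overlap of 50%, 66.7% of the 12 had none, and the 2 regions of CycK share 1 counterpart. The promoter value was higher in ΔM2-HA at 7 genes and lower at Nipped-A (0.893), vtd (0.911) and Slmap (0.454), and the median ratio was 1.60. Over the whole lists 302 of 434 shared regions were higher in ΔM2-HA, so 7 of 10 genes is near the share of all. Slmap alone was below 0.5, against 12.4% of all shared regions. All 434 shared regions had a median ratio of 1.31 (0.39 on the log2 scale), and the same 7 genes remained above 1 after division by it, with a median of 1.22. The regions were wider in ΔM2-HA at all 10 promoters, with a median width ratio of 2.16 (1.42 for Slmap to 4.57 for lt). Of all 434 shared regions 345 were wider. At 9 of the 10 promoters the width ratio was above 1.5, a mark that 54.8% of all shared regions passed. In other heterochromatic regions the median ratio was 1.48 for fold enrichment and 2.29 for width. In euchromatin these medians were 1.29 and 1.45.

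At lt, cta, rl, Nipped-B and Dbp80 the ΔM2-HA value was thus below wt-HA with anti-Mzfp1 and above it with anti-HA. At rl, for example, 122 became 37.2 with anti-Mzfp1 and 60.4 became 81.8 with anti-HA. The other heterochromatic regions had medians on the same 2 sides of 1 (0.351 with anti-Mzfp1, 1.48 with anti-HA). The anti-HA lists of wt-HA and ΔM2-HA differ much in length (553 and 6215 regions). The part of this in the result was not tested.

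**Figure D2:**
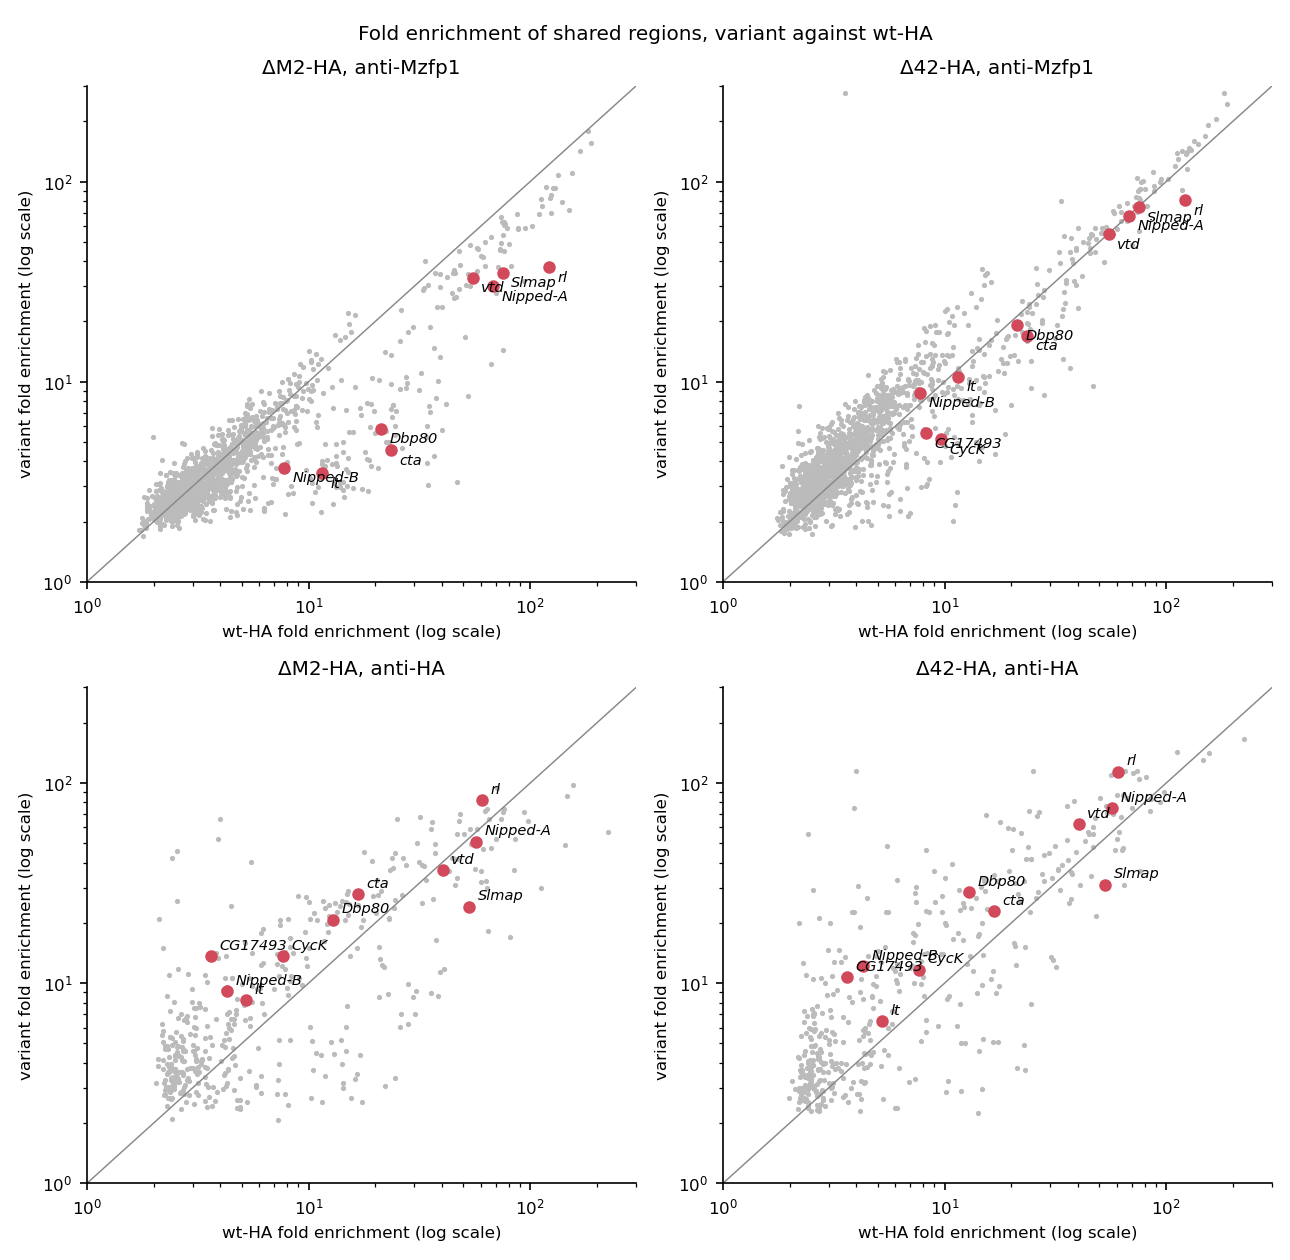
Fold enrichment in a variant (vertical, log scale) against wt-HA (horizontal, log scale) for every region shared by the lists, in grey, and for the promoters of the 10 genes, in red, with the line of equality. With anti-Mzfp1 the 8 ΔM2-HA points lie below the line (ratios 0.193 to 0.602), and with anti-HA 7 of 10 lie above it. Of the 10 Δ42-HA anti-Mzfp1 points 9 lie below the line. Their 10 ratios run from 0.534 to 1.13, with a median of 0.908.

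The comparison of Δ42-HA with wt-HA asks the same of the CP190-binding region. With anti-Mzfp1 all 10 promoters were found again, and the median fold enrichment ratio was 0.908, from 0.534 (CycK) to 1.13 (Nipped-B). Nipped-B was the single gene above 1, and it was at 0.953 after division by the median ratio of all shared regions, 1.19 (0.25 on the log2 scale), which put all 10 genes below 1 with a median of 0.766. That divisor rests mostly on euchromatic regions (median 1.20). The unscaled median was 0.948 in other heterochromatic regions and 1.03 in euchromatic regions in the wt-HA range of the 10 promoters. No gene had a ratio below 0.5 (2.69% of all shared regions did). The median width ratio was 0.970, with 2 of 10 promoters, lt (0.6) and CycK (0.434), below 0.67 (11.7% of all), and 4 of the 10 genes (cta, Nipped-B, vtd and Dbp80) had input widths that overlapped those of wt-HA. The largest IDR was 0.0498 in this Δ42-HA list and 0.00996 in wt-HA. The inputs of the 2 lists may thus be unlike, replicates in one and pseudoreplicates in the other. The CycK value comes from a region that was split in the Δ42-HA list. Of the 14 wt-HA regions 4 (28.6%, Wilson interval 11.7 to 54.6) had no counterpart, against 11.6% of all regions, and all 4 lay away from promoters. Of these, 2 belong to Slmap, and the share was 18.2% without that gene.

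With anti-HA all 12 wt-HA regions were found in Δ42-HA (21.3% of all regions and 6.67% of other heterochromatic ones were not), while 50% were not found with a reciprocal overlap of 50%. The promoter value was higher in Δ42-HA at 9 of 10 genes, with a median ratio of 1.53 (0.587 for Slmap to 2.97 for CG17493), and none was below 0.5 (5.98% of all shared regions). Over the whole lists 328 of 435 shared regions were higher in Δ42-HA. The median ratio was 1.84 in other heterochromatic regions and 1.38 (0.46 on the log2 scale) over all shared regions. After division by 1.38, lt (0.901) and Nipped-A (0.952) joined Slmap (0.427) below 1. The regions were wider at all 10 promoters (median ratio 1.91), as were 334 of the 435 shared regions, and 6 of 10 promoters exceeded 1.5 (49.7% of all). In other heterochromatic regions the median width ratio was 2.17 and 77.4% exceeded 1.5. At 8 genes the Δ42-HA ratio lay below 1 with anti-Mzfp1 and above 1 with anti-HA, but at Nipped-A (0.993) and vtd (0.994) the former was practically 1.

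**Figure D3:**
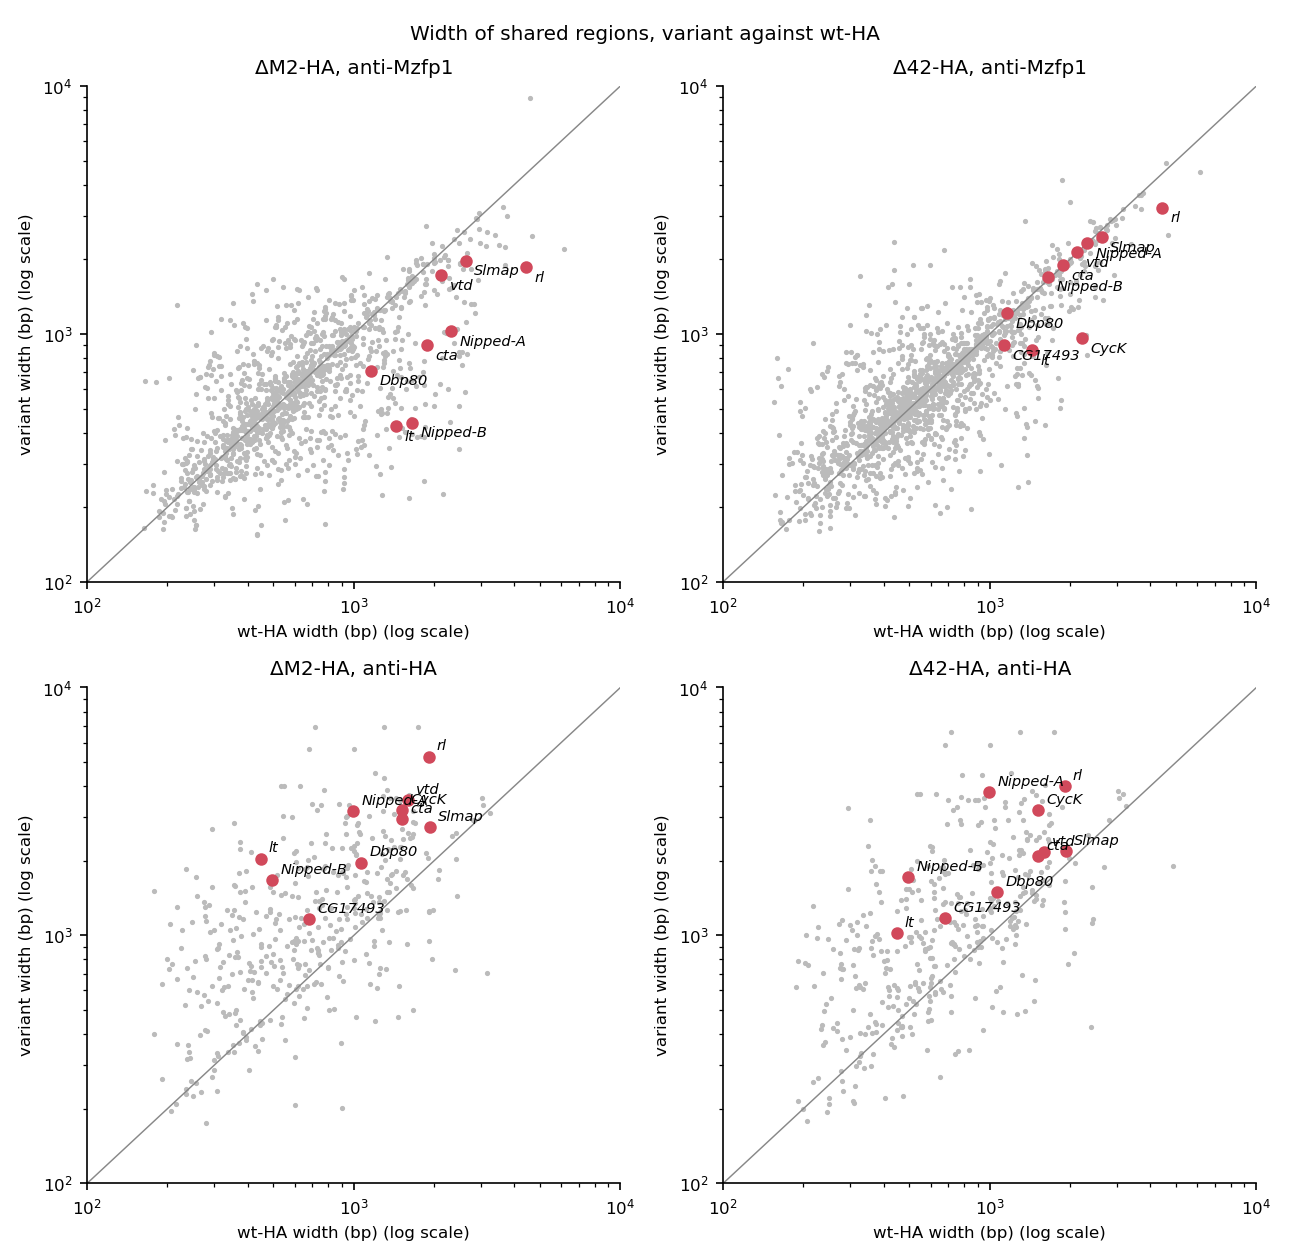
Width of shared regions in bp in a variant (vertical, log scale) against wt-HA (horizontal, log scale), all regions in grey and the promoters of the 10 genes in red, with the line of equality. The 8 ΔM2-HA anti-Mzfp1 points lie below the line (ratios 0.265 to 0.811), and with anti-HA all 10 points of either variant lie above it.

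ΔZF-HA lacks domains of the DNA-binding cluster and was precipitated with anti-HA only. Of the 12 wt-HA regions at the 10 genes 7 (58.3%, Wilson interval 32.0 to 80.7) had no counterpart, against 66.0% of all 553 wt-HA regions, so the genes did not stand out from the list. The largest IDR was 0.05 in ΔZF-HA and 0.00991 in wt-HA, so the cut-offs of these 2 lists may differ. The promoters of cta, rl, Nipped-A, vtd and Slmap were still listed, with a median fold enrichment ratio of 0.158 (0.0425 for Slmap to 0.208 for rl). These 5 are the genes with the highest wt-HA values with anti-HA. The 46 shared heterochromatic regions outside the 10 genes had a median ratio of 0.150. In rank the remaining regions of rl (5 of 6187), Nipped-A (14) and vtd (29) stood at the top of the ΔZF-HA list, whereas cta (1430) and Slmap (4950) did not. The median fold enrichment of the whole ΔZF-HA list was only 2.48. The paper reports neither true peaks nor significant signal for ΔZF-HA in these anti-HA data, so a listed region need not mean specific binding.

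**Figure D4:**
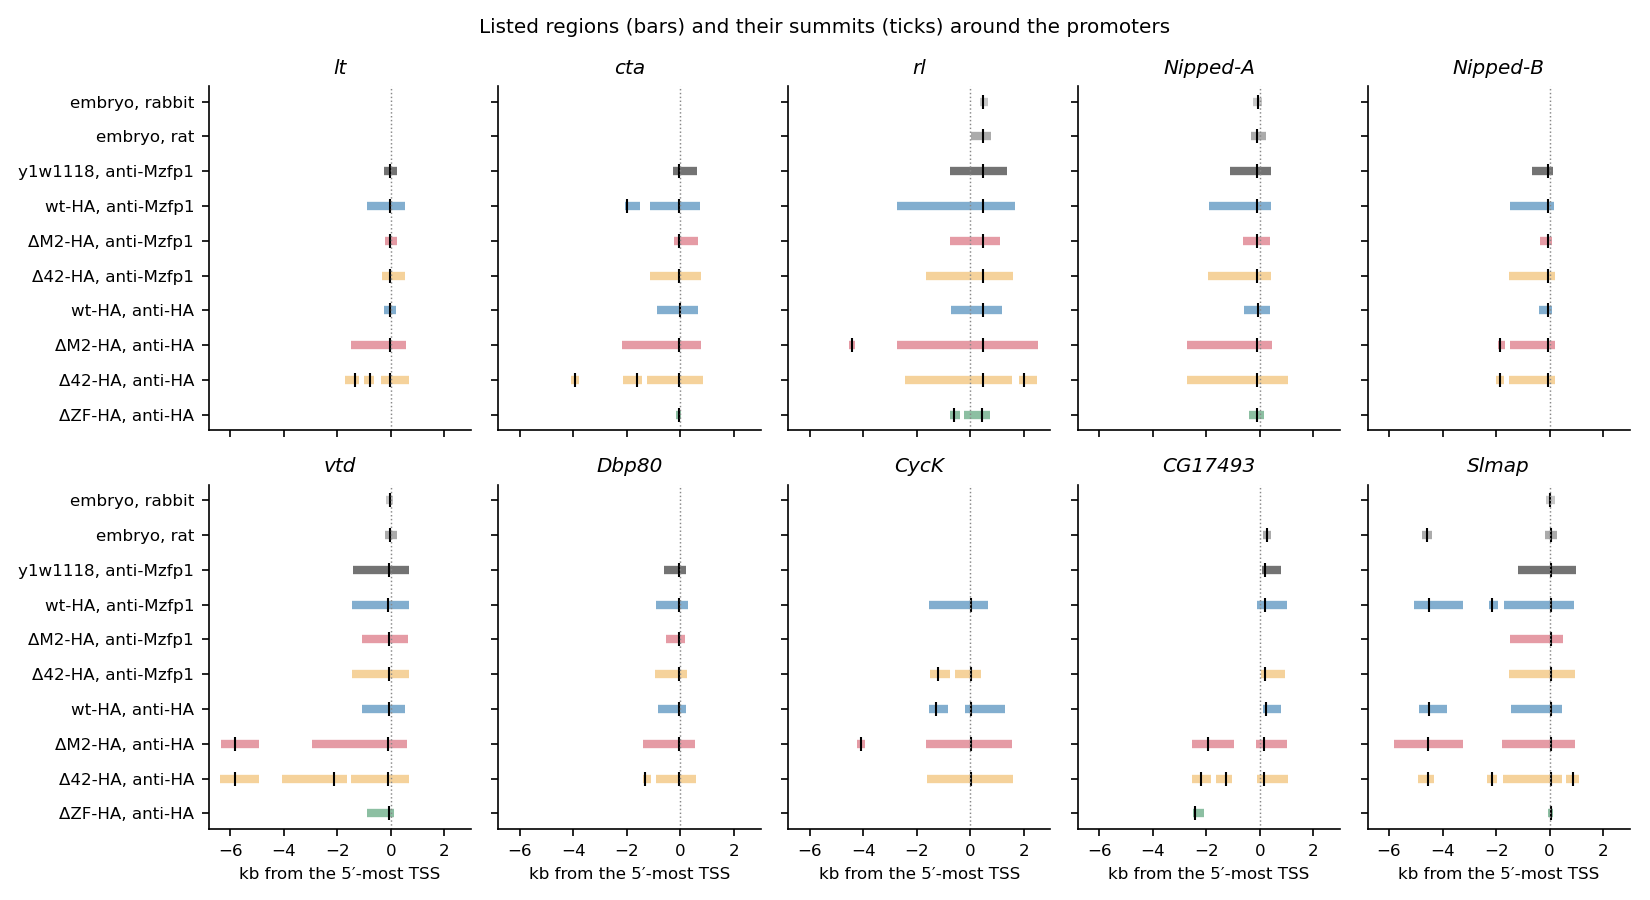
Listed regions (bars) and their summits (ticks) around the 5′-most TSS of each gene, with the distance in kb on the horizontal axis and the 10 lists in rows. Summits of the promoter regions line up between the lists, the ΔM2-HA anti-Mzfp1 bars are shorter than the wt-HA bars, and the anti-HA bars of ΔM2-HA are longer than those of wt-HA.

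The median width of the promoter regions was above the median of their list in the wt-HA, ΔM2-HA and Δ42-HA lists of both antibodies, although single regions were narrower, such as lt (447 bp) and Nipped-B (494 bp) in wt-HA under anti-HA. In wt-HA with anti-Mzfp1 their median width was 2006 bp (1127 bp for CG17493 to 4418 bp for rl), where the median of the list was 551.5 bp. With anti-HA it was 1288 bp in wt-HA (list median 604 bp), 2836 bp in ΔM2-HA (481 bp) and 2126 bp in Δ42-HA (509 bp). A promoter site here is the union of overlapping regions over the lists and is often wider than a single region. At 5 of the 10 promoter sites (rl, Nipped-A, Nipped-B, vtd and CycK) another gene started inside the site or within 500 bp of it. The CycK and CG17493 promoter sites overlapped an annotated transposable element. The distance of these starts and elements from the summits was not measured.

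Away from promoters the rule found 16 sites, 8 inside a gene body and 8 upstream, and 4 of them overlapped an annotated transposable element. Of the 16 sites 13 were listed only with anti-HA in a variant, where the lists were long, and their highest fold enrichment was 5.68, at the upstream site of vtd in Δ42-HA. These include sites deep in the gene bodies of rl (38328 bp from the TSS, fold enrichment 4.71 for ΔM2-HA and 3.57 for Δ42-HA), Nipped-A (45565 bp, 3.10 for ΔM2-HA, 2.70 for Δ42-HA, 2.59 for ΔZF-HA) and Dbp80 (82025 bp, 2.66 for ΔM2-HA, 2.33 for Δ42-HA, 2.22 for ΔZF-HA). The latter pair, and a site upstream of CG17493 (fold enrichment up to 3.24), were found in all 3 anti-HA variant lists and in no wt-HA list. At the outer limit of 5 kb, the vtd regions just inside began 4922 bp (ΔM2-HA, fold enrichment 4.29) and 4905 bp (Δ42-HA, 5.68) from the TSS, and the nearest regions outside lay 5401 bp (ΔM2-HA, 3.03) and 5432 bp (Δ42-HA, 2.53) from rl. Farther out, 6979 bp from Nipped-A, the ΔM2-HA list held a strong region (fold enrichment 20.7, 3358 bp wide) that the rule leaves out.

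In wt-HA, 3 sites away from promoters were listed. One in rl, 46029 bp from its TSS, had a fold enrichment of 2.26 with anti-Mzfp1 and was in no other list, and one with its summit at −2164 bp from Slmap had 2.49 with anti-Mzfp1 and 3.28 in Δ42-HA with anti-HA. The third, about 4.5 kb upstream of Slmap, was strong. Its fold enrichment was 35.1 in wt-HA with anti-Mzfp1 (rank 84 of 1684, summit at −4518 bp) and 14.4 with anti-HA (rank 117 of 553, −4519 bp). It was 4.19 in embryos with the rat antibody, anti-HA gave 3.18 for ΔM2-HA and 4.56 for Δ42-HA, and it was not listed in rabbit-antibody embryos, in y1w1118, in ΔM2-HA or Δ42-HA with anti-Mzfp1 or in ΔZF-HA. Of the 84 wt-HA anti-Mzfp1 regions at or above this value, it was the only one with no counterpart in ΔM2-HA, and likewise the only one with none in Δ42-HA. The cta region at −2006 bp from its TSS (2.25 in wt-HA with anti-Mzfp1) was part of the promoter site, since a wide ΔM2-HA anti-HA region joined them.

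The partner genes of these 10 in their complexes and pathways are mostly euchromatic, and 68 of 70 listed symbols were matched (mist and SA were not). In wt-HA with anti-Mzfp1 20 of the 68 (29.4%) had a promoter region, against 15.8% of all protein-coding genes, and in y1w1118 25 (36.8%, against 16.0%). With anti-HA in wt-HA there were 2 (2.94%, against 3.99%), Vps11, the HOPS core subunit, with a fold enrichment of 24.5, and Ref1, an mRNA export adaptor, with 50.2. Vps11 is itself heterochromatic, and with anti-Mzfp1 wt-HA gave 39.0, ΔM2-HA 13.2 and Δ42-HA 30.5 there, whereas anti-HA gave 44.8 for ΔM2-HA and 41.9 for Δ42-HA. The order was that of Dbp80 except between the anti-HA variants. By list, the counts in wt-HA with anti-Mzfp1 were 2 of 6 for HOPS and CORVET, 2 of 7 for Gα12/13 signalling, 4 of 9 for the ERK cascade, 3 of 17 for SAGA and Tip60, 4 of 7 for cohesin, 1 of 7 for transcription kinases and cyclins, 1 of 7 for mRNA export and 3 of 8 for STRIPAK. The shares for SAGA and Tip60 (17.6%), transcription kinases (14.3%) and mRNA export (14.3%) were near the 15.8% of all genes, and lists of this size allow no more than the counts. The 4 cohesin genes had low values with anti-Mzfp1. SMC1, the partner of Rad21 in the ring, had 3.91 in wt-HA and 4.33 in ΔM2-HA. Mau2, the partner of the loader, had 2.81 and 2.60, and the cohesin regulators pds5 and wapl had 2.97 and 2.38 and 3.38 and 2.85, so that SMC1 was the only one of the 4 with the higher value in ΔM2-HA.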

How the data were processed

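ChIP-seq region lists in narrowPeak layout were used. The authors aligned embryo reads with bowtie and adult reads with Bowtie2 to dm6, removed duplicates, reads that mapped to several places and blacklisted reads, and called regions with MACS2 against preimmune controls, at p = 1e-05 in embryos and at p = 0.01 in adults, where regions were kept by IDR (0.05 for replicates, 0.01 for pseudoreplicates). The removal of reads without a unique place lowers coverage in repeat-rich heterochromatin. The deposited fold enrichment is a ratio of ChIP to control. The authors also gave −log10 p values, a score that scales the IDR, and the interval and ranking score of each IDR input, which were used only for the IDR alternative and the second widths. Versions beyond those names are not given in the sources used here. Read depth is unknown.

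The 10 genes and the partner lists were chosen with earlier results of these data known. The text names the 10 genes, every site near their TSS and every site found in wt-HA, and counts the rest. Genes came from Ensembl release 115, and regions ended within the RefSeq Release 6 chromosomes. Regions were matched by 1 bp of overlap (the largest overlap where several matched), and fold enrichment and width were divided, variant by wt-HA (Python 3 scripts with pandas and numpy, tested on simulated lists). Groups follow the titles of the samples. Alternatives were the overlap rule, thresholds, list length, IDR limit, TSS window, scaling and each gene left out.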

Additional observations from a re-analysis of the deposited data

Results flagged for a closer look

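The direction of the variant to wt-HA ratio at the promoters of the 10 genes differed between the antibodies. For ΔM2-HA the median fold enrichment ratio was 0.373 with anti-Mzfp1 (8 genes) and 1.60 with anti-HA (10 genes), and it lay on opposite sides of 1 at 5 of the 8 genes measured with both. For Δ42-HA the medians were 0.908 and 1.53, with opposite sides at 8 of 10 genes, of which Nipped-A (0.993) and vtd (0.994) were practically at 1 with anti-Mzfp1. The medians of the other heterochromatic regions were split in the same way. They were 0.351 with anti-Mzfp1 and 1.48 with anti-HA for ΔM2-HA, and 0.948 and 1.84 for Δ42-HA. For heterochromatin sites as a group the paper already reports a difference between the antibodies. It saw no significant difference of ΔM2-HA or Δ42-HA from wt-HA with anti-HA, but considerably less binding in ΔM2-HA adults with anti-Mzfp1. How many of all regions lay on opposite sides was not counted. The difference between the antibodies was not tested, because each group has 1 list. The antibodies see different proteins (tagged plus endogenous, or tagged only), and the anti-HA lists of the variants are longer than that of wt-HA (6215 and 6192 against 553 regions). The protein levels differ as well, as the paper reports more ΔM2-HA and less Δ42-HA than wt-HA. The part of any of these in the result was not tested.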

How the results depend on the processing

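Of 274 values under alternatives, 13 lay outside the interval of the main ratio or share or, for counts of genes, differed from the main count by more than 1.5 times. The others did not, except that 4 rank percentiles, on another scale, were compared in direction only. Some values could not move, as the width of the first IDR input is the main width. An IDR limit of 0.01 also removes little or nothing from lists whose largest IDR was close to it. Values with a gene left out reuse the same genes and are not independent, so the count does not measure robustness. No median fold enrichment ratio crossed 1, while single genes near 1 did after scaling (Nipped-B with anti-Mzfp1, lt and Nipped-A with anti-HA, all in Δ42-HA). The number of genes with a region in the ΔZF-HA list was 7, and it was 3 with a fold enrichment of at least 3, 3 with adult lists of equal length and 4 at an IDR of at most 0.01. With a reciprocal overlap of 50%, the share of wt-HA regions not found was 78.6% in ΔM2-HA and, with anti-HA, 66.7% for ΔM2-HA and 50% for Δ42-HA, and the anti-HA width ratio of ΔM2-HA was 1.78. By construction this rule drops regions whose width changed. At promoters alone the anti-Mzfp1 share was 20% for ΔM2-HA and 0% for Δ42-HA, and with a fold enrichment of at least 3 in both lists it was 9.09% in Δ42-HA. Divided by the median of all shared regions, the anti-HA width ratio was 1.45 for ΔM2-HA and 1.29 for Δ42-HA, and the anti-HA fold enrichment ratio of Δ42-HA was 1.11. In place of fold enrichment, the rank percentile moved away from the top by a median of 5.52 points for ΔM2-HA and 0.0812 for Δ42-HA, both under anti-Mzfp1. The cause was not tested.

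With each gene left out in turn, the anti-Mzfp1 share not found ran from 36.4 to 46.2% in ΔM2-HA and from 18.2 to 30.8% in Δ42-HA, the fold enrichment ratio from 0.305 to 0.442 and from 0.897 to 0.920, and the width ratio from 0.442 to 0.480 and from 0.937 to 1.00. With anti-HA, the fold enrichment ratio ran from 1.47 to 1.64 in ΔM2-HA and from 1.46 to 1.72 in Δ42-HA, and the width ratio from 2.20 to 2.48 and from 1.57 to 2.11. No paired analysis was possible because each group has 1 list and no result comes from a test. With no read depth, a promoter that is not listed (CycK in y1w1118, for example) may hold signal below the threshold of its list.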
